A study of Homo sapiens with 6 samples.

Results

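The genes that build the mitotic spindle, attach chromosomes to it, separate the sister chromatids and divide the cell were examined as a group of 60, given by name among the 19775 genes that the array probe sets name. They were divided by role into 11 mitotic kinases, cyclins and phosphatases, 11 checkpoint and anaphase genes, 15 kinetochore and passenger complex genes, 12 kinesins and spindle proteins, 7 condensin and chromosome genes, and 4 cytokinesis genes. The names were fixed without a threshold on these measurements, though with earlier results of these data known. All 60 passed the filter on low signals, which kept 13398 genes for testing.

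A cell enters mitosis when CDK1 bound to cyclin B becomes active. Condensins then compact the chromosomes, microtubules attach to a kinetochore built on the centromeric histone CENPA, and the spindle checkpoint holds back the anaphase-promoting complex until every kinetochore is attached. The transcripts of most of these proteins accumulate late in the cell cycle and are scarce in cells that have left it. Many of their promoters carry a short element called the cell cycle genes homology region (CHR), to which the MuvB proteins of the DREAM complex bind, together with CCAAT boxes bound by NF-Y. Genes of DNA replication are more often controlled through E2F sites, where the retinoblastoma protein (RB, encoded by RB1) acts as a repressor. In cultured fibroblasts that enter senescence, a lasting arrest that an active Ras oncogene can set off, division stops and mitotic genes are known to be low.

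IMR90 cells are normal human lung fibroblasts, and every culture here carried ER:Ras, an H-Ras V12 oncogene fused to a receptor domain so that 4-hydroxytamoxifen (4-OHT) switches it on. Growing cells received neither 4-OHT nor siRNA. Ctrl-KD OIS cells (control knockdown, oncogene-induced senescence) were given 100 nM 4-OHT for 6 days, with a control siRNA transfected 4 days before the RNA was taken. RB-KD OIS cells were treated in the same way with a mixture of siRNAs against RB1. Each state was measured on 2 arrays labelled as biological replicates. Between either OIS state and growing cells, Ras activity, 4-OHT and transfection cannot be told apart, and the labels do not say whether the transgene line was a clone or a pool. Unless a unit is given, values are MAS5 signals, a linear brightness that ranks arrays for 1 probe set but not different genes against each other.

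RB1 was low on both RB-KD OIS arrays, at 222 and 228, against 2578 and 1914 on the Ctrl-KD OIS arrays (log2 difference -3.30, SE 0.14, adjusted p = 2.73e-06). Its second probe set was at or under the array median on 5 of 6 arrays, and with the mean of both the difference was -1.48 and was not called (adjusted p = 0.251). The 9 fibroblast markers all gave signals of 277 or more on every array, 6 of the 9 were called lower in Ctrl-KD OIS than growing cells (median log2 difference -1.62) and 3 were called higher on RB1 knockdown (median 0.41), and their part in the results on mitotic genes was not tested. Of 13 markers of epithelial, leukocyte and endothelial cells all stayed at or under 165 except KRT18, which read 3016 to 3763. The median signal of an array lay between 46.0 and 51.8. Mitotic genes tended to one side between replicates, and so did genes of DNA replication. In Ctrl-KD OIS cells replicate 2 was higher than replicate 1 for 52 of the 60 (86.7%, median log2 difference 0.64), against 77.4% of 31 replication and licensing genes (median 0.18) and 55.1% of all tested genes (median 0.04). In RB-KD OIS cells it was higher for 54 of 60 (90%, median 0.43), against 87.1% and 53%. In growing cells it was higher for 13 of 60 (21.7%, median -0.07), against 25.8% and 49.7%. Where leaving out an array changes a call, the value without it is given beside the result.

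Mitotic genes fell almost as a whole in Ctrl-KD OIS cells. Against growing cells, 56 of the 60 were called lower, 1 was called higher and 3 were not called. Both Ctrl-KD OIS arrays lay below both growing arrays for 59 genes and above them for ESPL1, so that the states overlapped for none. Of all tested genes, 21.2% were called lower and 20.5% higher (41.7% either way), and 36.2% had both arrays below and 35% both above. The median log2 difference of the members was -2.75, a 6.74-fold lower signal, where that of all tested genes was -0.01. The fall exceeded 4-fold for 44 members, a size reached by 3.91% of all tested genes, and 8-fold for 25. The largest was that of KIF20A at 14.3-fold and the smallest called one that of BUB3 at 1.22-fold. In RNA from a whole culture, fewer cycling cells and less RNA per cell cannot be told apart. The number called lower was 54 to 57 with each of the 6 arrays left out in turn, and ESPL1 lost its call without Ctrl-KD OIS replicate 1 (adjusted p = 0.0711), Ctrl-KD OIS replicate 2 (adjusted p = 0.0710) or growing replicate 2 (adjusted p = 0.137).

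With RB1 knocked down within OIS, the share of members called higher was near that of all tested genes, while most members lay above 0. Against Ctrl-KD OIS cells, 10 of the 60 were called higher in RB-KD OIS cells (16.7%), 1 was called lower (1.67%) and 49 were not called, while 12.6% of all tested genes were called higher and 11.6% lower (24.2% either way). The 10 were CENPU, CENPK, CDK1, NUSAP1, CENPM, CCNF, KIF23, SMC2, BUB3 and MAD2L1, by 1.32- to 4.86-fold, and the 1 was ESPL1. The median log2 difference over the 60 was 0.34 (all tested genes -0.02), with 49 members above 0, as were 6437 of the 13398 tested genes. Without Ctrl-KD OIS replicate 1, 33 members were above 0. The arrays of both states overlapped for 40 members, and both RB-KD OIS arrays lay above for 19 of the 60, where 28.8% of all tested genes did so. They lay below for 1 member (ESPL1), where 30.8% of all tested genes did so. For 28 of the 49 members not called the unadjusted 95% interval of the log2 difference stayed within 1 of 0, while for 20 it reached above 1. These intervals rest on 2 arrays per state. Most members differed to the same side between those replicates, so the intervals may be too narrow to bound a change. The number called higher was 20 without Ctrl-KD OIS replicate 2 (median 0.59) and 4 without RB-KD OIS replicate 2 (median 0.08). Under all 15 alternatives tried, CENPU, CENPK, NUSAP1 and SMC2 were called higher.

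RB-KD OIS cells kept low signals for most members. Against growing cells, 52 of the 60 were called lower (86.7%), none was called higher and 8 were not called, while 19% of all tested genes were called lower and 18.5% higher (37.6% either way). Both RB-KD OIS arrays lay below both growing arrays for 56 members and above them for CENPK and BUB3. Of all tested genes, 36.3% had both arrays below and 34.2% both above. The median log2 difference was -2.32 (all tested genes -0.02), and 42 members were lower by more than 4-fold, as were 2.69% of all tested genes. The members not called were CENPK, CENPU, CCNF, BUB3, ESPL1, PLK1, SGO1 and INCENP. By their mean signals, 46 members were highest in growing cells and lowest in Ctrl-KD OIS cells, and 11, ESPL1 among them, were lowest in RB-KD OIS cells. On the probe sets used, CENPK, CCNF and BUB3 were highest in RB-KD OIS cells, and ESPL1 in Ctrl-KD OIS cells. These orders are of means, and the 3 comparisons share arrays: the 2 against growing cells share the growing arrays, and each OIS state enters 2 of the comparisons.

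**Figure D1:**
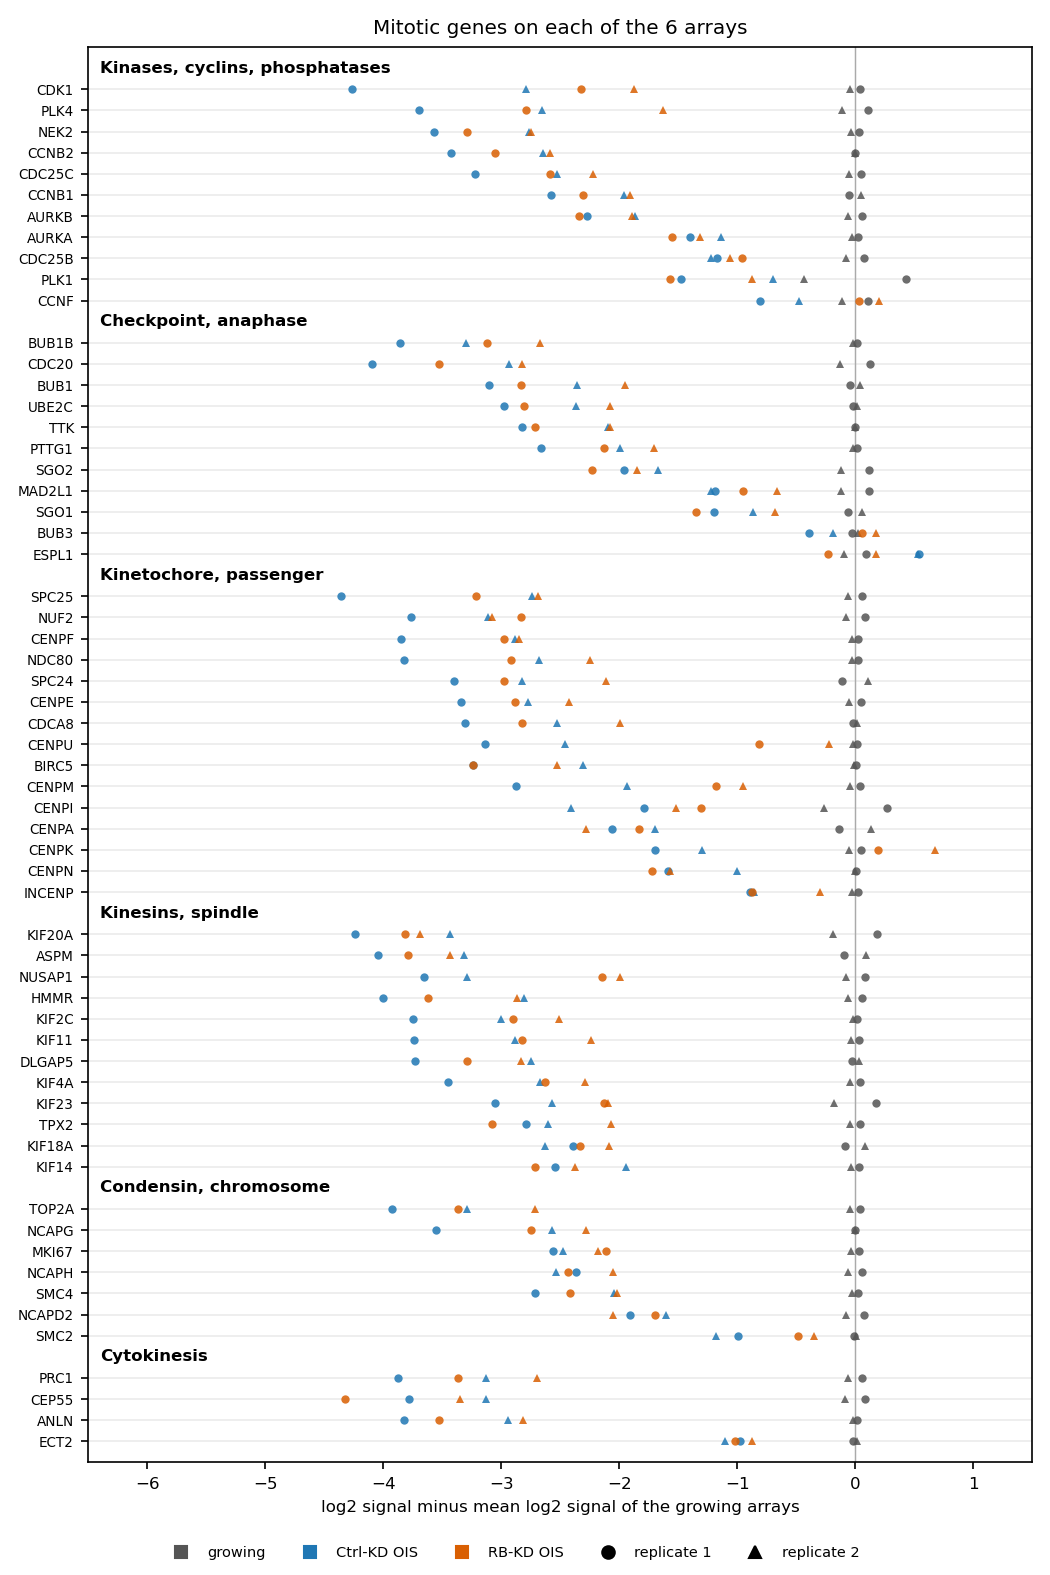
Each row is 1 of the 60 mitotic genes, grouped by role, and each point is 1 of the 6 arrays (circles replicate 1, triangles replicate 2). The x axis is the log2 signal minus the mean log2 signal of the growing arrays. Points of both OIS states lie left of the growing arrays for most genes, and the RB-KD OIS points of CENPU and CENPK lie apart from the Ctrl-KD OIS points.

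Many promoters of the members hold letters of the elements described above for mitotic genes. These motifs were chosen with that, and earlier results of these data, known, so their shares only describe the list. In the 250 bases before the start site, read on both strands, the CHR letters TTTGAA or TTTAAA occurred in 36 of the 53 members with an entry in the RefSeq promoter table (67.9%), in 2 of 27 replication and licensing genes (7.41%), and in 25.5% of all 27305 genes of the table. CCAAT occurred in 43 members (81.1%), 16 of the replication genes (59.3%) and 37% of all genes. Both together occurred in 31 members (58.5%), in none of the 27 replication genes and in 9.29% of all genes. The E2F letters TTTGGCG or TTTCCCG occurred in 3 members (5.66%), CENPA, MKI67 and NUSAP1, in 15 of the 27 replication genes (55.6%) and in 6.25% of all genes. A gene with several start sites counted once if any window held the letters, with 1.28 windows per member and 1.29 per gene of the table. None of these motifs contains another, and BUB3, BIRC5, TTK, AURKA, CENPM, UBE2C and TPX2 had no entry. Among members called higher in RB-KD OIS than in Ctrl-KD OIS cells, 4 of 8 held CHR letters, and among the other members 32 of 45. A match of letters is a description and not a measured binding site. Other forms of these elements were not searched, so a promoter without a match may still hold a site.

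**Figure D2:**
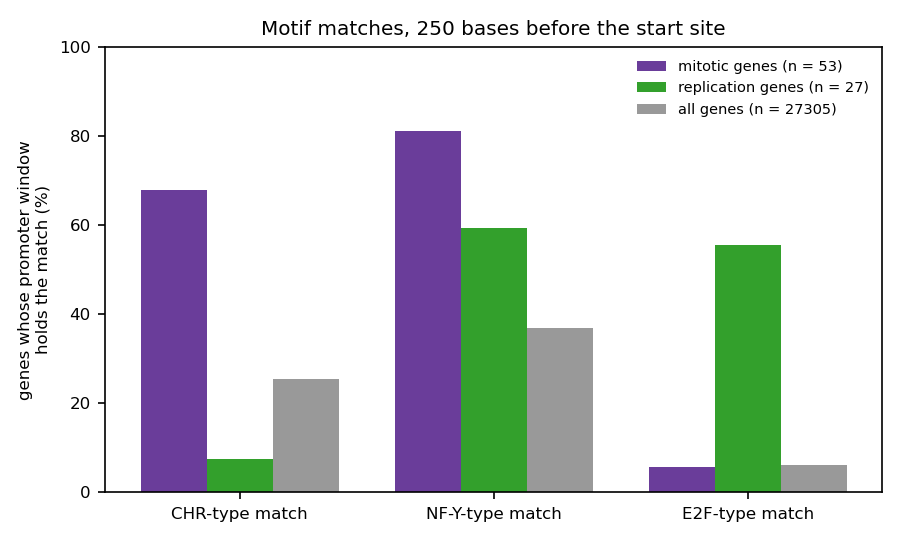
Bars give the percentage of genes whose promoter window (250 bases before a start site, both strands) holds the CHR-type, NF-Y-type or E2F-type letters, for 53 mitotic genes, 27 replication genes and all 27305 genes of the table. The CHR-type bar is highest for mitotic genes (67.9%) and the E2F-type bar for replication genes (55.6%).

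Examples of the letters are shown for members that were called higher on RB1 knockdown and for members that were not. They were chosen after their values were seen and do not stand for their groups. Each is the 150 bases before a RefSeq start site of GRCh38.p14, written 5′ to 3′ on the strand of the gene, with CHR, CCAAT and E2F letters of either strand in capitals (ATTGG is CCAAT and CGGGAAA is TTTCCCG on the opposite strand). CCNB1 (chr5:69167000-69167149, plus strand), CCNB2 (chr15:59104996-59105145, plus), CDC20 (chr1:43358831-43358980, plus) and KIF20A (chr5:138178962-138179111, plus) were low in both OIS states and hold CCAAT and CHR letters. CENPK (chr5:65563169-65563318, minus) and CENPU (chr4:184734097-184734246, minus) were called higher in RB-KD OIS cells. Of the letters searched, they hold CCAAT alone, and other forms of an E2F site were not searched. NUSAP1 (chr15:41332731-41332880, plus), also called higher, holds all 3 kinds. Over all members with a promoter entry, CHR letters occurred in 4 of 8 called higher and in 32 of 45 others. CDK1, CCNF and KIF23 were called higher and hold CHR letters in the whole window searched. NEK2, AURKB, PLK4 and BUB1 were not called on RB1 knockdown and hold none there.
CCNB1: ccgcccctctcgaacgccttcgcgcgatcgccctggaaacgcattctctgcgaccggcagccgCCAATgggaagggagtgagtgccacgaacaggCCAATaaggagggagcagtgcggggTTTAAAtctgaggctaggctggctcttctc
CCNB2: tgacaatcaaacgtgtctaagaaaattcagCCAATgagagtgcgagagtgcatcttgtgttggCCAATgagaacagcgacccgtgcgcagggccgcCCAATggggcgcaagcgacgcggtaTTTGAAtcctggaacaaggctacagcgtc
CDC20: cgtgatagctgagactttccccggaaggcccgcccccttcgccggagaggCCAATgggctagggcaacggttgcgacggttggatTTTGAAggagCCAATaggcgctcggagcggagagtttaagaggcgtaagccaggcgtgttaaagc
KIF20A: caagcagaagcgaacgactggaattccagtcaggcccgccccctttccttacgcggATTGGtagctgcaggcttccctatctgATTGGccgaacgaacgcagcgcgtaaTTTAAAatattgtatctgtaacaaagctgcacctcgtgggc
CENPK: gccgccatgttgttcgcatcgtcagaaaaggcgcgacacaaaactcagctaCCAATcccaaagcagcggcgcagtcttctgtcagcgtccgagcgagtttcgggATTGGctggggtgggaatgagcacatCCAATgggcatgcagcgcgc
CENPU: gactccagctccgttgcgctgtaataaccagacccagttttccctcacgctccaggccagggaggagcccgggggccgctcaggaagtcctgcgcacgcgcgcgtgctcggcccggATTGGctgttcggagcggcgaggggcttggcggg
NUSAP1: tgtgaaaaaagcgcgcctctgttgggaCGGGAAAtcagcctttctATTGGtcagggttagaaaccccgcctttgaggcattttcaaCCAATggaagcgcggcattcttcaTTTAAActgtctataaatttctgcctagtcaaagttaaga

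In CCNB1, CCNB2 and KIF20A all CCAAT letters lie further from the start than the CHR letters, and in CDC20 they lie on both sides of them. The CENPU stretch has 1 CCAAT match, on the opposite strand, and the CENPK stretch 3.

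Of the kinases, cyclins and phosphatases that drive entry into mitosis, 10 of 11 fell in Ctrl-KD OIS cells (median log2 difference -2.27), and 2 of 11 rose on RB1 knockdown (18.2%). The counts of this and the next role groups are to be read against the 21.2% of all tested genes called lower in the first comparison and the 12.6% called higher in the second, and no group was tested against other genes. CDK1, the mitotic kinase itself, read 5508 and 5177 on the growing arrays, 278 and 774 on the Ctrl-KD OIS arrays and 1065 and 1456 on the RB-KD OIS arrays. The 3 states did not overlap. It was 11.5-fold lower in Ctrl-KD OIS than growing cells (log2 difference -3.52, SE 0.38, adjusted p = 7.27e-05), 2.68-fold higher in RB-KD OIS than in Ctrl-KD OIS cells (1.42, SE 0.38, adjusted p = 0.0240) and still 4.29-fold lower than in growing cells (-2.10, adjusted p = 0.00208). The rise on RB1 knockdown did not pass without RB-KD OIS replicate 1 (1.65, adjusted p = 0.0662) or RB-KD OIS replicate 2 (1.20, adjusted p = 0.139). Of its 3 other probe sets, the 2 that exceeded the array median throughout had log2 differences of 1.02 and 1.10 between the OIS states, and the third was under it on all 4 OIS arrays.

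The cyclin B partners of CDK1 were not called on RB1 knockdown. CCNB1 gave 4895 and 5264 in growing, 848 and 1303 in Ctrl-KD OIS, and 1027 and 1354 in RB-KD OIS cells. CCNB2 gave 3652 and 3642 in growing, 339 and 581 in Ctrl-KD OIS, and 440 and 607 in RB-KD OIS cells. Both were far below growing cells in each OIS state, and the OIS states overlapped. CCNB1 fell 4.83-fold in Ctrl-KD OIS cells (limma adjusted p = 1.99e-05) and CCNB2 8.22-fold (adjusted p = 1.10e-05), with differences between the OIS states of 0.17 (95% interval -0.28 to 0.61) and 0.22 (-0.32 to 0.76) on the log2 scale. With the mean of its probe sets in place of the brightest, CCNB2 no longer passed (-1.19, adjusted p = 0.0807). The CDC25 phosphatases activate CDK1. CDC25C read 431 and 401 in growing, 44.5 and 72.2 in Ctrl-KD OIS, and 69.4 and 89.2 in RB-KD OIS cells, a fall of 7.33-fold in Ctrl-KD OIS cells (limma adjusted p = 0.000115) with overlapping OIS states. CDC25B fell by 2.29-fold.

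CCNF, an F-box cyclin that directs proteins to degradation, fell and rose again on its brightest probe set. Its signals were 342 and 294 in growing, 181 and 228 in Ctrl-KD OIS, and 324 and 366 in RB-KD OIS cells. The Ctrl-KD OIS arrays were the lowest and the other states overlapped. The other CCNF probe set, above the array median on 4 arrays, read 106 and 87.7 in growing cells. It read 60.3 and 24.5 in Ctrl-KD OIS and 36.2 and 59.3 in RB-KD OIS cells. There the OIS arrays overlapped, and RB-KD OIS minus growing cells was -1.06 (not tested). The values that follow are of the brightest probe set. The fall was 1.56-fold (log2 difference -0.64, SE 0.20, adjusted p = 0.0279), the rise 1.70-fold (0.76, SE 0.20, adjusted p = 0.0226) and the difference of RB-KD OIS from growing cells 0.12 (95% interval -0.33 to 0.57). Both calls were close to the threshold: the fall was lost without Ctrl-KD OIS replicate 1 (-0.47, adjusted p = 0.128) or either growing array (adjusted p = 0.173 without replicate 1, 0.0593 without replicate 2), and the rise without Ctrl-KD OIS replicate 1 (0.59, adjusted p = 0.0941), RB-KD OIS replicate 1 (0.85, adjusted p = 0.0626) or RB-KD OIS replicate 2 (0.68, adjusted p = 0.107).

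The Aurora, Polo-like and NEK kinases act on centrosomes, spindle poles and kinetochores. NEK2, which separates the centrosomes, gave 1442 and 1375 in growing, 119 and 207 in Ctrl-KD OIS, and 144 and 210.1 in RB-KD OIS cells. PLK4, which starts centriole duplication, gave 765 and 655 in growing, 54.7 and 112 in Ctrl-KD OIS, and 102 and 229.5 in RB-KD OIS cells. Both OIS states lay far below growing cells for both kinases, and the OIS states overlapped. NEK2 was 8.99-fold lower in Ctrl-KD OIS cells (limma adjusted p = 2.11e-05) and 8.09-fold lower in RB-KD OIS cells (limma adjusted p = 4.05e-05) than in growing cells, and PLK4 9.04-fold (adjusted p = 0.000285) and 4.62-fold (adjusted p = 0.00296). Between the OIS states PLK4 had the largest difference among members not called, 0.97 on the log2 scale (SE 0.42, adjusted p = 0.133), and passed without RB-KD OIS replicate 1 (1.55, adjusted p = 0.0465). AURKB, the kinase of the chromosomal passenger complex, read 586 and 538 in growing, 116 and 154 in Ctrl-KD OIS, and 111 and 151 in RB-KD OIS cells. Its OIS arrays interleaved, and it was 4.19-fold lower in Ctrl-KD OIS than growing cells (limma adjusted p = 0.000134), with a difference between the OIS states of -0.05 (95% interval -0.60 to 0.50). AURKA, which acts at the spindle poles, fell by 2.41-fold. PLK1, a kinase with tasks from mitotic entry to cytokinesis, was dim on these arrays at 158 and 86.4 in growing, 41.9 and 72.3 in Ctrl-KD OIS, and 39.3 and 63.9 in RB-KD OIS cells. Both OIS states lay below the growing arrays, which themselves differed by nearly as much, and neither difference passed (-1.09, SE 0.52, adjusted p = 0.128, and -1.22, adjusted p = 0.0967).

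Among checkpoint and anaphase genes, 9 of 11 fell in Ctrl-KD OIS cells (median log2 difference -2.33), and 2 rose and 1 fell on RB1 knockdown. BUB1B, or BubR1, which binds and inhibits CDC20, gave 1805 and 1768 in growing, 123 and 182 in Ctrl-KD OIS, and 205 and 281 in RB-KD OIS cells. The 3 states did not overlap. It fell by 11.9-fold in Ctrl-KD OIS cells (log2 difference -3.58, SE 0.22, adjusted p = 2.81e-06), was 7.44-fold below growing cells in RB-KD OIS cells (limma adjusted p = 1.46e-05), and differed by 0.68 between the OIS states (SE 0.22, adjusted p = 0.0548). That difference passed without Ctrl-KD OIS replicate 2 (0.96, adjusted p = 0.0208), after median centring (0.70, adjusted p = 0.0399) and with the higher filter (adjusted p = 0.0442). CDC20, the activator of the anaphase-promoting complex, read 3100 and 2611 in growing, 166 and 373 in Ctrl-KD OIS, and 246 and 402 in RB-KD OIS cells. Its OIS arrays overlapped, and it was 11.4-fold lower in Ctrl-KD OIS (limma adjusted p = 4.65e-05) and 9.04-fold lower in RB-KD OIS cells (limma adjusted p = 0.000117) than in growing cells.

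The kinases BUB1 and TTK, which start checkpoint signalling at the kinetochore, followed the same course. So did UBE2C, the ubiquitin-conjugating enzyme that works with the anaphase-promoting complex. BUB1 gave 1159.7 and 1234 in growing, 139 and 233 in Ctrl-KD OIS, and 168 and 309 in RB-KD OIS cells. TTK gave 1176 and 1172 in growing, 166 and 275 in Ctrl-KD OIS, and 178 and 278 in RB-KD OIS cells. UBE2C gave 3397 and 3467 in growing, 437 and 666 in Ctrl-KD OIS, and 489.8 and 812 in RB-KD OIS cells. Each was 5.50- to 6.64-fold lower in Ctrl-KD OIS than growing cells (highest adjusted p = 0.000107) with overlapping OIS states. PTTG1, the securin that keeps separase inactive, fell by 5.01-fold and was called higher on RB1 knockdown without Ctrl-KD OIS replicate 2 (0.74, adjusted p = 0.0178). SGO2, a protector of centromeric cohesion, fell by 3.52-fold. Its relative SGO1 was dim, at 86.6 and 93.7 in growing, 39.2 and 49.3 in Ctrl-KD OIS, and 35.4 and 56.2 in RB-KD OIS cells, and its difference of -1.03 did not pass (SE 0.50, adjusted p = 0.134).

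MAD2L1 and BUB3, further parts of the checkpoint complex, had smaller falls. MAD2L1 read 4908 and 4147 in growing, 1983 and 1931 in Ctrl-KD OIS, and 2332 and 2843 in RB-KD OIS cells, and BUB3, which also has roles outside mitosis, read 9681 and 10023 in growing, 7533 and 8655 in Ctrl-KD OIS, and 10244 and 11134 in RB-KD OIS cells. The 3 states did not overlap for either gene. MAD2L1 fell 2.31-fold in Ctrl-KD OIS cells (limma adjusted p = 5.04e-05) and rose 1.32-fold on RB1 knockdown (log2 difference 0.40, SE 0.12, adjusted p = 0.0426). That rise lost its call without any one array except RB-KD OIS replicate 1 (adjusted p = 0.0536 to 0.224). BUB3 fell by 1.22-fold (adjusted p = 0.0323), rose by 1.32-fold (0.40, adjusted p = 0.0125) and then lay at 0.12 from growing cells (95% interval -0.09 to 0.32). Of its other probe sets, the 3 that exceeded the array median throughout had log2 differences of -0.19, -0.08 and -0.18 for Ctrl-KD OIS minus growing cells and of 0.06, 0.36 and 0.07 between the OIS states. The other MAD2L1 probe sets gave 0.48 and 0.27 between the OIS states. The BUB3 fall was lost without Ctrl-KD OIS replicate 1 (-0.19, adjusted p = 0.130) or either growing array (adjusted p = 0.116 without replicate 1, 0.180 without replicate 2), and its rise without RB-KD OIS replicate 2 (0.34, adjusted p = 0.0753).

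ESPL1, or separase, the protease that cuts cohesin at anaphase, ran the other way. It gave 676 and 592 in growing cells, 918 and 918 in Ctrl-KD OIS cells and 540.2 and 715 in RB-KD OIS cells. The Ctrl-KD OIS arrays lay above all others, and the other states overlapped. The rise was 1.45-fold (log2 difference 0.54, SE 0.16, adjusted p = 0.0214) and the fall on RB1 knockdown 1.48-fold (-0.56, SE 0.16, adjusted p = 0.0292). Its second probe set had a log2 difference of 0.38 between Ctrl-KD OIS and growing cells and of -0.44 between the OIS states. The fall did not pass without either Ctrl-KD OIS array (adjusted p = 0.0880 without replicate 1, 0.0920 without replicate 2) or without RB-KD OIS replicate 1 (-0.36, adjusted p = 0.162).

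Of 15 kinetochore and passenger complex genes, 14 fell in Ctrl-KD OIS cells (median log2 difference -2.80), and 3 rose on RB1 knockdown (20%, against 12.6% of all tested genes). The 3, CENPU, CENPK and CENPM, encode proteins of the inner kinetochore network that sits on CENPA chromatin, as do CENPI and CENPN, which were not called. CENPU read 2273 and 2223 on the growing arrays, 256 and 409 on the Ctrl-KD OIS arrays and 1278 and 1933 on the RB-KD OIS arrays. CENPK read 1294 and 1211 in growing, 386 and 509 in Ctrl-KD OIS, and 1436 and 2001 in RB-KD OIS cells. No 2 states overlapped for either gene, and for CENPK the RB-KD OIS arrays were the highest. CENPU fell 6.95-fold in Ctrl-KD OIS cells (-2.80, SE 0.24, adjusted p = 1.71e-05) and rose 4.86-fold on RB1 knockdown (2.28, SE 0.24, adjusted p = 0.000251). CENPK fell 2.82-fold (-1.50, SE 0.18, adjusted p = 0.000163) and rose 3.82-fold (1.93, SE 0.18, adjusted p = 0.000147). Against growing cells, the RB-KD OIS levels differed by -0.52 for CENPU (95% interval -1.05 to 0.02, adjusted p = 0.120) and 0.44 for CENPK (0.03 to 0.85, adjusted p = 0.0901). The first passed without RB-KD OIS replicate 2 (-0.81, adjusted p = 0.0482) and the second without RB-KD OIS replicate 1 (0.68, adjusted p = 0.0307). The other CENPU probe sets were each under the array median on 1 Ctrl-KD OIS array. The first read 54.9 and 41.2 in Ctrl-KD OIS and 91.1 and 135 in RB-KD OIS cells, and the second read 9.4 and 61.4, then 118 and 157.

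CENPM, in the same network, gave 662 and 626 in growing, 87.9 and 169 in Ctrl-KD OIS, and 284 and 334 in RB-KD OIS cells, with no overlap. It fell 5.29-fold (adjusted p = 0.000138), rose 2.53-fold on RB1 knockdown (1.34, SE 0.28, adjusted p = 0.00904) and remained 2.09-fold below growing cells (limma adjusted p = 0.0160). The rise did not pass without RB-KD OIS replicate 2 (1.22, adjusted p = 0.0603), and the last difference did not pass without RB-KD OIS replicate 1 (-0.95, adjusted p = 0.0929) or either growing array (adjusted p = 0.0779 without replicate 1, 0.0603 without replicate 2). The network members CENPI and CENPN were not called between the OIS states (0.68, adjusted p = 0.124, and -0.35, adjusted p = 0.198), though CENPN was called lower without Ctrl-KD OIS replicate 1 (-0.65, adjusted p = 0.0148). The CENPI difference from growing cells in RB-KD OIS cells (-1.42) was not called without growing replicate 1 (-1.15, adjusted p = 0.0520). CENPA itself read 357 and 431 in growing, 93.9 and 121 in Ctrl-KD OIS, and 110 and 80.5 in RB-KD OIS cells. It was 3.68-fold lower in Ctrl-KD OIS than growing cells (limma adjusted p = 0.000548), and its OIS arrays overlapped (-0.18, 95% interval -0.81 to 0.45).

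The NDC80 complex of the outer kinetochore, which holds the microtubules, was low in both OIS states. NDC80 gave 1264 and 1223 in growing, 87.7 and 194 in Ctrl-KD OIS, and 165 and 262 in RB-KD OIS cells. Its partner NUF2 gave 1347 and 1206 in growing, 93.7 and 147 in Ctrl-KD OIS, and 179 and 151 in RB-KD OIS cells. SPC25, of the same 4-protein complex, gave 755 and 698 in growing, 35.4 and 108 in Ctrl-KD OIS, and 78.0 and 113 in RB-KD OIS cells. All OIS arrays lay far below the growing arrays. In Ctrl-KD OIS cells NDC80 was 9.54-fold (adjusted p = 7.64e-05), NUF2 10.8-fold (adjusted p = 5.16e-06) and SPC25 11.7-fold lower (adjusted p = 0.000255). Between the OIS states their log2 differences were 0.67 (SE 0.35), 0.49 (SE 0.24) and 0.60 (SE 0.46), none of which passed. All 3 were called higher without Ctrl-KD OIS replicate 2 (1.25, adjusted p = 0.0210, 0.81, adjusted p = 0.0340, and 1.41, adjusted p = 0.0214). SPC24, the fourth subunit, fell by 8.65-fold in Ctrl-KD OIS cells, and the motor CENPE by 8.32-fold.

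CENPF, a large protein of the outer kinetochore, read 2790.3 and 2683 in growing, 189.9 and 371 in Ctrl-KD OIS, and 347 and 380.1 in RB-KD OIS cells, a fall of 10.3-fold in Ctrl-KD OIS cells (limma adjusted p = 9.95e-06). Its difference between the OIS states was 0.45 (SE 0.26) and was called without Ctrl-KD OIS replicate 2 (0.94, adjusted p = 0.00489). BIRC5, or survivin, which with CDCA8 and INCENP carries AURKB to centromeres, read 2069 and 2039 in growing, 218 and 415 in Ctrl-KD OIS, and 218 and 356 in RB-KD OIS cells, with overlapping OIS states. It was 6.84-fold lower in Ctrl-KD OIS cells (limma adjusted p = 8.49e-05) and 7.37-fold lower in RB-KD OIS cells (limma adjusted p = 9.10e-05), and CDCA8 was 7.56-fold lower in Ctrl-KD OIS cells. INCENP, the scaffold of that complex, was at 166 and 159.9 in growing, 87.9 and 90.1 in Ctrl-KD OIS, and 89.1 and 132 in RB-KD OIS cells. All its OIS arrays were below the growing arrays, but the difference in Ctrl-KD OIS cells was at the threshold (-0.87, SE 0.31, adjusted p = 0.0504). It passed without RB-KD OIS replicate 1 (adjusted p = 0.0368) or replicate 2 (adjusted p = 0.0436), arrays that enter only the shared spread.

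**Figure D3:**
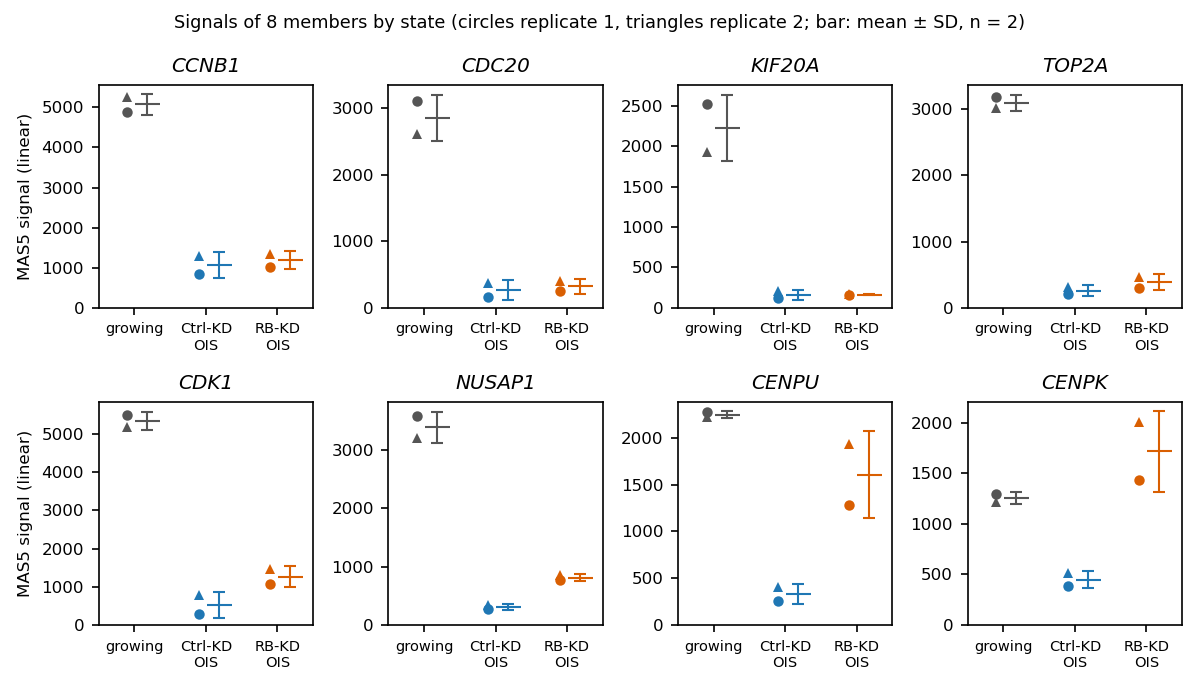
Linear MAS5 signals of 8 members on the 6 arrays (circles replicate 1, triangles replicate 2), with bars for the mean ± SD of the 2 arrays of a state. CCNB1, CDC20, KIF20A and TOP2A are low in both OIS states, and CDK1, NUSAP1, CENPU and CENPK have RB-KD OIS arrays above both Ctrl-KD OIS arrays.

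All 12 kinesins and spindle proteins fell in Ctrl-KD OIS cells (median log2 difference -3.28) and all 12 were also lower in RB-KD OIS than growing cells (median -2.56). KIF20A, which carries the passenger complex to the central spindle, had the largest fall of all members in Ctrl-KD OIS cells. It read 2516 and 1934 in growing, 117 and 203 in Ctrl-KD OIS, and 156 and 171 in RB-KD OIS cells. The RB-KD OIS arrays lay between the Ctrl-KD OIS arrays. The differences from growing cells were -3.84 (SE 0.26, adjusted p = 4.19e-06) and -3.75 (adjusted p = 6.91e-06), and that between the OIS states was 0.08 (95% interval -0.50 to 0.66). ASPM, a protein of the spindle poles, gave 2777 and 3149.9 in growing, 179 and 297 in Ctrl-KD OIS, and 214 and 274 in RB-KD OIS cells. It too overlapped between the OIS states, 12.8-fold (adjusted p = 3.03e-06) and 12.2-fold lower than in growing cells (limma adjusted p = 4.73e-06).

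NUSAP1, which bundles spindle microtubules, had the largest rise on RB1 knockdown among the 12 kinesins and spindle proteins. Its signals were 3573 and 3199 in growing, 268 and 345 in Ctrl-KD OIS, and 765 and 848 in RB-KD OIS cells. No states overlapped, and the RB-KD OIS arrays stayed far below growing cells. It fell 11.1-fold (-3.48, SE 0.15, adjusted p = 2.80e-07), rose 2.65-fold (1.41, SE 0.15, adjusted p = 0.000252) and was 4.20-fold lower than in growing cells (limma adjusted p = 8.50e-06). Its other probe set, under the array median on 1 Ctrl-KD OIS array, read 44.4 and 78.5 in Ctrl-KD OIS and 89.6 and 120 in RB-KD OIS cells. KIF23, a motor of the central spindle, read 1076 and 842 in growing, 115 and 160.3 in Ctrl-KD OIS, and 217 and 222 in RB-KD OIS cells, without overlap, a fall of 7.01-fold (adjusted p = 9.69e-06) and a rise of 1.62-fold (0.70, SE 0.22, adjusted p = 0.0445). The KIF23 rise was called only without Ctrl-KD OIS replicate 2 when single arrays were left out (adjusted p = 0.0696 to 0.177 without each of the others).

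KIF11, the motor that pushes the spindle poles apart, gave 1487 and 1420.2 in growing, 109 and 197 in Ctrl-KD OIS, and 205 and 307 in RB-KD OIS cells. Its OIS states did not overlap, yet the difference of 0.78 between them did not pass (SE 0.29, adjusted p = 0.0811). It passed without Ctrl-KD OIS replicate 2 (1.21, adjusted p = 0.0158). Against growing cells it was 9.92-fold lower in Ctrl-KD OIS cells (limma adjusted p = 1.99e-05). KIF2C and KIF4A, which depolymerise microtubules and organise the central spindle, differed between the OIS states by 0.67 and 0.60 and were also called without that array (1.05, adjusted p = 0.00963, and 0.99, adjusted p = 0.0139). TPX2, the activator of AURKA on the spindle, read 1904 and 1788 in growing, 267 and 304 in Ctrl-KD OIS, and 219 and 439 in RB-KD OIS cells. The RB-KD OIS arrays lay on either side of the Ctrl-KD OIS arrays, and the difference of 0.12 was called without RB-KD OIS replicate 1 (0.62, adjusted p = 0.0420). TPX2 was 6.48-fold lower in Ctrl-KD OIS than growing cells (limma adjusted p = 5.23e-05). HMMR and DLGAP5 bind spindle microtubules. HMMR read 2927 and 2686 in growing, 175 and 400.2 in Ctrl-KD OIS, and 228 and 384 in RB-KD OIS cells. DLGAP5 read 2246 and 2340.2 in growing, 172 and 341 in Ctrl-KD OIS, and 234 and 321 in RB-KD OIS cells. With overlapping OIS states, they were 10.6-fold (adjusted p = 6.33e-05) and 9.45-fold lower in Ctrl-KD OIS cells (limma adjusted p = 2.27e-05) and 9.46-fold and 8.37-fold lower in RB-KD OIS cells. The motors KIF18A and KIF14 fell by 5.69-fold and 4.73-fold in Ctrl-KD OIS cells and were not called between the OIS states (0.30 and -0.30).

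**Figure D4:**
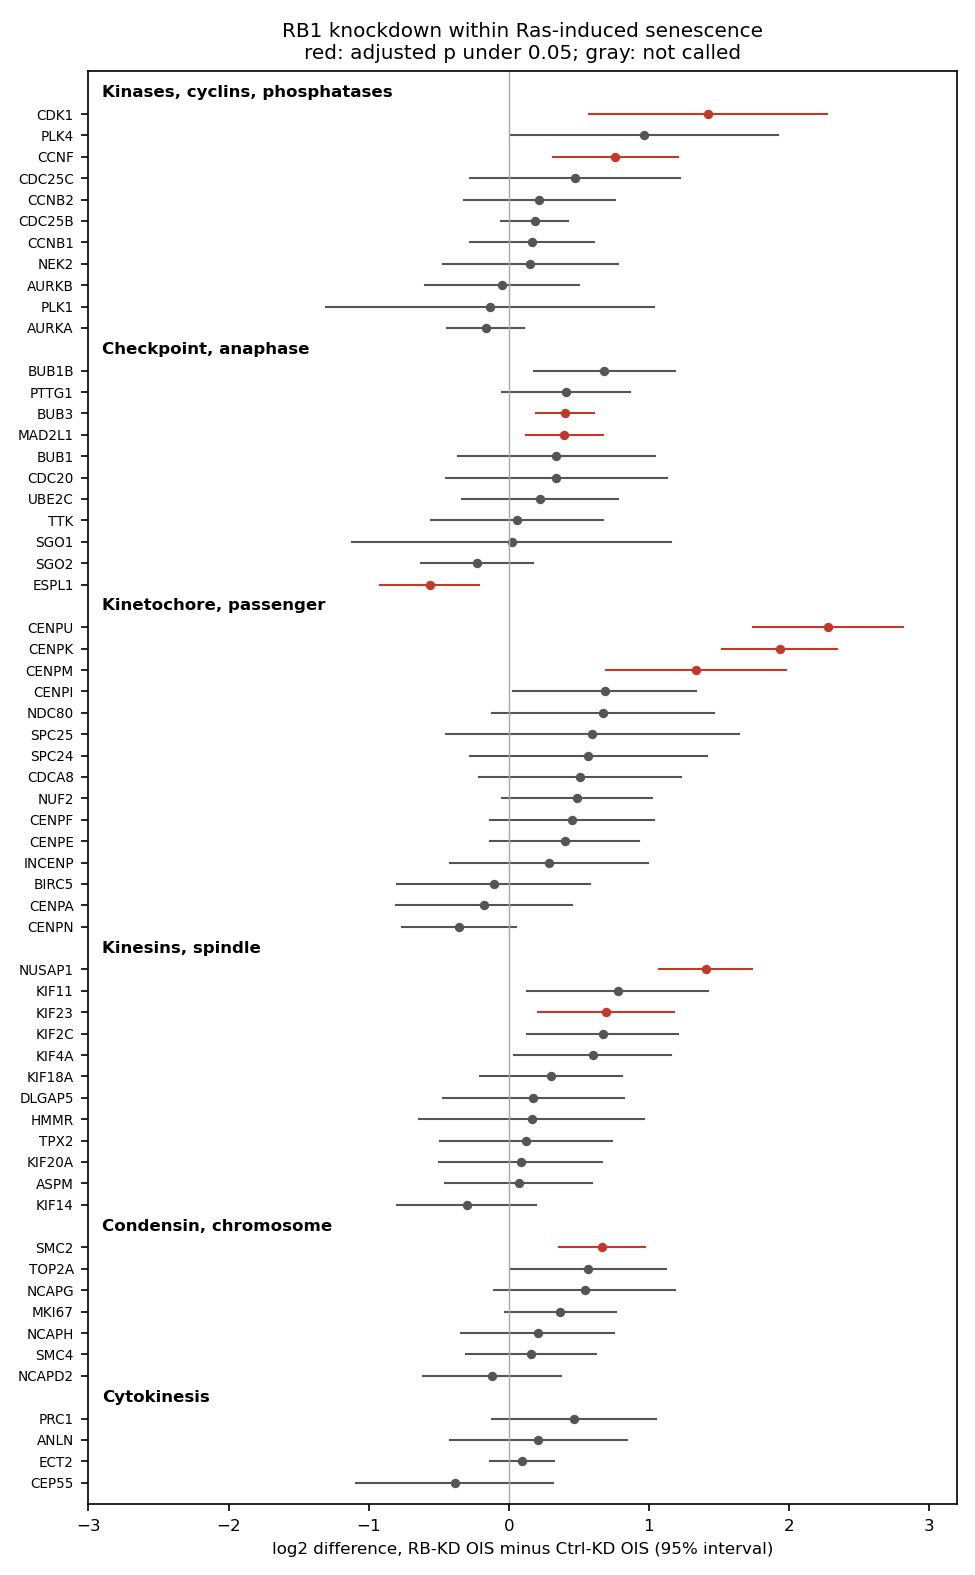
Points give the log2 difference of RB-KD OIS from Ctrl-KD OIS cells for the 60 members, with 95% intervals from the fit over 6 arrays, and red marks the 11 with an adjusted p under 0.05. The 4 largest differences are those of CENPU (2.28), CENPK (1.93), CDK1 (1.42) and NUSAP1 (1.41).

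The 7 condensin and chromosome genes all fell in Ctrl-KD OIS cells (median log2 difference -2.45), and 1 rose on RB1 knockdown. TOP2A, the topoisomerase that untangles sister chromatids, read 3187 and 3016 in growing, 204 and 317 in Ctrl-KD OIS, and 300.4 and 472 in RB-KD OIS cells. It was 12.2-fold lower in Ctrl-KD OIS (limma adjusted p = 4.73e-06) and 8.23-fold lower in RB-KD OIS than growing cells (limma adjusted p = 1.87e-05). NCAPG, a subunit of condensin I, read 2166 and 2158 in growing, 185 and 365 in Ctrl-KD OIS, and 321 and 445 in RB-KD OIS cells, 8.33-fold lower in Ctrl-KD OIS cells (limma adjusted p = 3.12e-05). For both genes the OIS arrays overlapped, and their differences (0.56, adjusted p = 0.133, and 0.54, adjusted p = 0.211) passed without Ctrl-KD OIS replicate 2 (0.88, adjusted p = 0.0457, and 1.03, adjusted p = 0.0132). MKI67, which encodes the Ki-67 protein that coats mitotic chromosomes and is a standard marker of cycling cells, read 807 and 772 in growing, 134 and 142 in Ctrl-KD OIS, and 182 and 174 in RB-KD OIS cells. Its states did not overlap, and it fell by 5.72-fold (adjusted p = 5.57e-06) and differed by 0.37 between the OIS states (SE 0.18, adjusted p = 0.169).

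SMC2 and SMC4 form the core of condensin, yet their values differed. SMC2 gave 822 and 835 in growing, 417 and 367 in Ctrl-KD OIS, and 593 and 649 in RB-KD OIS cells. SMC4 gave 5728 and 5523 in growing, 856 and 1366 in Ctrl-KD OIS, and 1055 and 1384 in RB-KD OIS cells. The 3 states did not overlap for SMC2, and the OIS states overlapped for SMC4. SMC2 fell 2.12-fold (-1.08, SE 0.13, adjusted p = 0.000192) and rose 1.59-fold on RB1 knockdown (0.67, SE 0.13, adjusted p = 0.00727), to 1.34-fold below growing cells (limma adjusted p = 0.0368). The last difference lost its call without either growing array or either RB-KD OIS array (adjusted p = 0.0637 to 0.166). SMC4 fell 5.20-fold (adjusted p = 1.91e-05) and differed by 0.16 between the OIS states (95% interval -0.30 to 0.62). The difference of SMC2 from SMC4 was not tested. NCAPH, also of condensin I, read 543 and 499 in growing, 101 and 90.0 in Ctrl-KD OIS, and 96.4 and 125 in RB-KD OIS cells and fell by 5.47-fold in Ctrl-KD OIS cells (limma adjusted p = 4.34e-05), and NCAPD2 fell by 3.38-fold.

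All 4 cytokinesis genes fell in Ctrl-KD OIS cells (median log2 difference -3.42), all 4 were lower in RB-KD OIS than growing cells (median -3.10), and none was called between the OIS states. PRC1, which bundles the microtubules of the midzone, read 4833 and 4440.2 in growing, 316 and 530.2 in Ctrl-KD OIS, and 449 and 713 in RB-KD OIS cells. ANLN, the scaffold of the contractile ring, read 9254 and 9016 in growing, 646 and 1187 in Ctrl-KD OIS, and 793 and 1296 in RB-KD OIS cells. CEP55, which recruits the abscission machinery, read 2452 and 2176 in growing, 168 and 265 in Ctrl-KD OIS, and 115 and 226 in RB-KD OIS cells. For all 3 the OIS arrays overlapped far below growing cells. They were 10.4- to 11.3-fold lower in Ctrl-KD OIS cells (highest adjusted p = 2.58e-05), and CEP55 had the largest difference of any member between RB-KD OIS and growing cells, 14.3-fold (adjusted p = 1.94e-05). ECT2, the exchange factor that activates RhoA at the cleavage site, gave 2806 and 2861 in growing, 1442 and 1318 in Ctrl-KD OIS, and 1398 and 1545 in RB-KD OIS cells and fell least, by 2.06-fold (adjusted p = 4.09e-05). Its difference between the OIS states was 0.09, with a 95% interval of -0.14 to 0.32.

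The genes of DNA replication and origin licensing, 31 listed for comparison and all tested, are shown beside the mitotic genes. In Ctrl-KD OIS against growing cells, 27 of the 31 were called lower and 1 higher (median log2 difference -1.80, against -2.75 for the 60 mitotic genes). Of all tested genes, 21.2% were called lower and 20.5% higher there. Between the OIS states, 28 of the 31 were called higher (90.3%) and none lower (median 1.86, against 0.34), where 12.6% of all tested genes were called higher and 11.6% lower. In RB-KD OIS against growing cells, 12 were called higher (38.7%) and 2 lower (6.45%; median 0.34, against -2.32), where 18.5% of all tested genes were called higher and 19% lower. The difference between the lists was not tested, and the comparisons share arrays. In both OIS states, replicate 2 was above replicate 1 for most mitotic genes. The median of the mitotic genes on RB1 knockdown was 0.59 without Ctrl-KD OIS replicate 2 and 0.08 without RB-KD OIS replicate 2. Medians of the replication genes with an array left out were not computed.

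**Figure D5:**
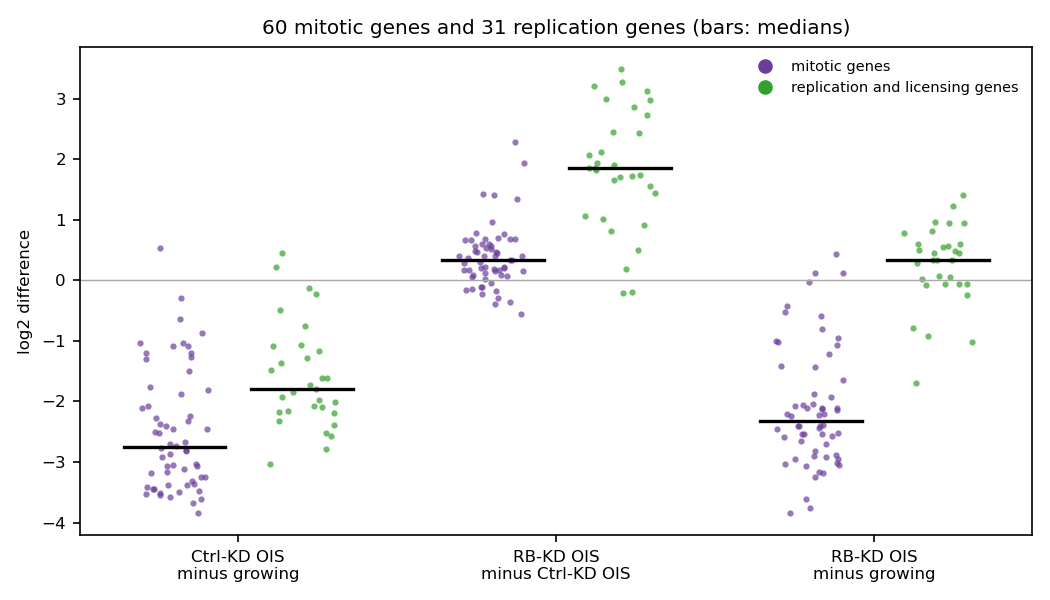
Each point is 1 gene, with its log2 difference on the y axis for the 3 comparisons, purple for the 60 mitotic and green for the 31 replication and licensing genes, and bars mark medians (points are spread sideways for clarity). On RB1 knockdown the medians are 0.34 and 1.86.

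Mitotic genes outside the 60 had medians closer to 0. Of 144 listed kinetochore, spindle, condensin, cohesin, kinase, anaphase-promoting complex and cytokinesis genes, 132 were tested. In Ctrl-KD OIS against growing cells 83 were called lower (62.9%, all tested genes 21.2%) and 9 higher (6.82%, all tested genes 20.5%), with a median of -0.64. On RB1 knockdown 37 were called higher (28%, all tested genes 12.6%) and 11 lower (8.33%, all tested genes 11.6%), with a median of 0.25. Between RB-KD OIS and growing cells 62 were called lower (47%, all tested genes 19%) and 20 higher (15.2%, all tested genes 18.5%), with a median of -0.35. The anaphase-promoting complex had 3 of 14 called lower in Ctrl-KD OIS cells, a share of 21.4% and so near that of all tested genes. It had 1 called higher (7.14%). The largest falls in Ctrl-KD OIS cells were those of HJURP, the chaperone that deposits CENPA (-3.71, adjusted p = 0.000283), the spindle protein FAM83D (-3.61, adjusted p = 1.05e-06) and the motor KIFC1 (-3.54, adjusted p = 0.00115). The largest rises were those of E2F7 (2.26, adjusted p = 1.93e-07), the kinase PLK3 (1.05, adjusted p = 0.000527) and the phosphatase inhibitor ENSA (0.89, adjusted p = 2.99e-05). E2F7 is a transcription repressor of the E2F family that was listed with the cytokinesis genes.

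On RB1 knockdown the largest rises among these were in the condensin II subunit NCAPG2, the phosphatase CDC25A and the kinetochore protein ZWINT. NCAPG2 read 1594 and 1742 in growing, 191 and 187 in Ctrl-KD OIS, and 747 and 1182 in RB-KD OIS cells (log2 difference between the OIS states 2.31, adjusted p = 8.25e-05). CDC25A, which activates CDK2 at the start of S phase as well as CDK1, read 246 and 198 in growing, 83.0 and 164 in Ctrl-KD OIS, and 402 and 603 in RB-KD OIS cells (log2 difference between the OIS states 2.08, adjusted p = 0.00237). ZWINT read 5827 and 5834 in growing, 1505 and 2209 in Ctrl-KD OIS, and 6882 and 7785 in RB-KD OIS cells (log2 difference between the OIS states 2.01, adjusted p = 5.53e-05). In all 3 the RB-KD OIS arrays lay above the Ctrl-KD OIS arrays, and in CDC25A and ZWINT above the growing arrays. The largest falls were in SEPTIN6, a filament-forming protein of the cytoskeleton (-0.98, adjusted p = 0.00658), the spindle protein TROAP (-0.84, adjusted p = 0.0233) and CKS2, a CDK-binding subunit (-0.62, adjusted p = 0.00694). Against growing cells, RB-KD OIS cells were lowest for the outer kinetochore proteins SKA1 (-3.33, under the array median on both RB-KD OIS arrays) and KNL1 (-3.11) and for DEPDC1B (-3.07), and highest for E2F7 (1.99), CDC25A (1.16) and the kinetochore protein DSN1 (1.11), all with adjusted p of 0.0233 or less.

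The members' other probe sets were examined next. The members have 122 probe sets that name them alone, and 34 members have more than 1. Of the 62 other probe sets, 43 (of 29 members) lay above the array median on at least 2 arrays. In Ctrl-KD OIS against growing cells 42 of these were below 0 (median log2 difference -2.63) and 1, that of ESPL1, above. Between the OIS states 33 were above 0 and 10 below (median 0.27), and 35 had the sign of the probe set used. These values were not tested. With the mean of all probe sets in place of the brightest one, CCNB2, BUB3, ESPL1, CENPI and CENPN lost their calls in Ctrl-KD OIS against growing cells (limma adjusted p = 0.0636 to 0.103), and CCNB2, CENPI and CENPN in RB-KD OIS against growing cells (0.0596 to 0.0828). CDK1, CCNF, BUB3, MAD2L1, KIF23 and ESPL1 lost theirs between the OIS states (0.0571 to 0.600), where 5 members were then called.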

How the data were processed

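RNA of 6 IMR90 ER:Ras cultures was hybridized by the authors to Affymetrix U133 Plus 2.0 arrays. The deposited values are linear intensities, which per the labels are MAS5 signals from Affymetrix Expression Console (versions not given in the sources used here). Their trimmed means (2% of signals removed at each end) were 496 on every array, so they had been scaled to a common level. Detection calls were not used here, and the number of arrays limits the precision. The labels call replicates biological, and the paper states that the RNA came from 2 independent experiments. The p-values measure only the spread between these arrays of IMR90 cells.

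Signals were log2-transformed without an offset. Of 54613 probe sets, 41091 name 1 gene, 1801 several and 11721 none in the platform table. Each gene was read from the brightest probe set that names no other gene. Genes whose signal exceeded the median of its array on 2 of 6 arrays or more (13398) were fitted with a mean per state in limma 3.58.1 (R 4.3.3; lmFit, contrasts.fit, and eBayes with a trend), two-sided, with Benjamini-Hochberg adjustment over all of them and a threshold of 0.05. Intervals are unadjusted 95% intervals of that fit. Promoters (RefSeq, GRCh38.p14) were searched with Python 3.11.15.

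The members, lists, tests and motifs were chosen with earlier results of these data known. All members may be named. Full values are given for RB1, for up to 4 called members per role group and comparison with the largest differences, for every member not called lower in Ctrl-KD OIS cells, and for 15 further members (CDK1, CCNB1, PLK1, AURKB, BUB1B, CDC20, CENPA, NDC80, KIF11, TPX2, TOP2A, NCAPG, MKI67, PRC1, ANLN). Of the other mitotic genes, the 3 largest called rises and falls per comparison are named. Members named only because a call moved were chosen after their values were seen. The fit was also run on simulated data in which genes varied independently. That cannot speak for calls of members, which moved together between replicates. The fit was repeated after median centring or quantile normalization, with 12.5 added before log2 (the 25th percentile), without the filter or with one at the 70th percentile, on the mean over all probe sets, without the trend, on the 2 compared states alone, with a replicate block, and without each array. Assays other than the arrays were not analysed here.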

Additional observations from a re-analysis of the deposited data

How the results depend on the processing

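Over the 15 alternatives, the median log2 difference of the 60 genes kept its sign in each comparison. It lay at -3.08 to -2.53 (Ctrl-KD OIS against growing), 0.08 to 0.59 (RB-KD OIS against Ctrl-KD OIS) and -2.61 to -2.08 (RB-KD OIS against growing) with 1 array left out, and at -2.80 to -2.58, 0.31 to 0.37 and -2.40 to -2.21 under the other alternatives. Members called lower against growing cells numbered 54 to 57 in Ctrl-KD OIS and 49 to 52 in RB-KD OIS cells with 1 array left out, and 50 to 57 and 47 to 53 otherwise. Relative to growing cells, members called higher in Ctrl-KD OIS cells numbered 0 to 1 with 1 array left out, 0 with the mean of all probe sets and 0 with no trend. On RB1 knockdown, 4 to 20 were called higher with 1 array left out, 5 with the mean of all probe sets and 4 with no trend, and 0 to 1 were called lower, with 0 under those 2 alternatives. In RB-KD OIS against growing cells, 0 to 1 were called higher with 1 array left out, 1 with median centring and 1 with the replicate block. The labels do not say whether a replicate number marks the same experiment in each state, and the main fit did not pair arrays. Correlations of same-numbered deviations over 13398 genes were -0.0038, 0.035 and 0.010. Taken over all tested genes, they cannot show whether the values of the members were paired. The replicate block gave 56 lower and 1 higher, 14 higher and 1 lower, and 53 lower and 1 higher in the 3 comparisons. With it, BUB1B, KIF11, KIF2C and TOP2A were also called higher on RB1 knockdown (adjusted p = 0.0233, 0.0283, 0.0245 and 0.0473), and against growing cells RB-KD OIS cells were called lower for CENPU (0.0319) and higher for CENPK (0.0405). RB1 with 1 array left out was -0.43 to 0.00049 between Ctrl-KD OIS and growing cells, with -0.43 called without Ctrl-KD OIS replicate 1, -3.52 to -3.09 on RB1 knockdown and -3.55 to -3.49 in RB-KD OIS against growing cells. Over the mean of its 2 probe sets it was -1.48 and -2.16 in the latter comparisons, and neither passed. The cause of these moves was not tested. A state left with 1 array is assumed to vary like the others. With 2 arrays per state, a member whose interval is wide is not shown to be unaffected, and dim members such as PLK1 and SGO1 lay at or under the array median on 1 array of each OIS state.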
